A study of Mus musculus with 2 samples.

Results

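Axon guidance genes, 10 in number, were followed in lung endothelial cells, namely the semaphorins Sema3c, Sema3g, Sema5a and Sema7a, the semaphorin receptor Plxnd1, the ephrins Efnb2 and Efna1, and the Eph receptors Ephb4, Epha4 and Epha2. These 10 genes were taken by their symbols from the 31053 genes counted, with earlier results of these data known. The cells came from lungs of wild-type C57BL/6 mice, which the study describes as male and 8 to 10 weeks old, and were purified by flow sorting on PECAM1, which endothelial cells carry on their surface, with no gate against leukocytes in this experiment. The tail vein had received phosphate-buffered saline (control library) or 200000 B16-F10 cells, a mouse melanoma line (metastatic library), 6 h before. Each library pooled 2 mice and each group held 1 library, so that a difference between groups had no replicate check and was not tested, and all intervals given for it cover counting error only. The question of the study was how the lung endothelium responds to arriving melanoma cells.

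Semaphorins are secreted or membrane-bound ligands that signal through plexin receptors, and those of class 3 use neuropilins as co-receptors. Ephrins are ligands held on the cell surface, and their Eph receptors are tyrosine kinases on the neighbouring cell, so that signals pass in both directions at cell contacts. Both systems steer growing axons and vessels, and ephrin-B2 and EphB4 are the classical marks of arterial and venous endothelium.

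The control library held 67929614 unique molecular identifiers (UMIs, each standing for a captured RNA molecule) and the metastatic library 64733724. Barcodes with 1000 to 5000 genes and under 20% mitochondrial UMIs were taken as cells, which gave 7134 and 6466 cells with medians of 6272 and 6526 UMIs. Of these barcodes, 16 occurred in both libraries. Cells were classed by marker genes that include none of the 10. General capillary cells (gCap, the commonest capillary cell) numbered 5020 in the control and 4519 in the metastatic library, aerocytes (the capillary cells of the gas exchange surface) 1364 and 1086, vein cells 247 and 304, and artery cells 63 and 59. In each of these classes at least 97.4% of the cells carried 2 or more of the endothelial markers Pecam1, Cdh5, Cldn5 and Tie1. The classes were not sharply apart, since 2 or more gCap markers were also found in 55.7% and 54.4% of the aerocytes, 59.9% and 54.3% of the vein cells, and 81.0% and 62.7% of the artery cells. Levels are given as UMIs per 1000000 UMIs of the class and library (CPM), with 95% Poisson intervals, and are compared within a gene, not between genes.

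In gCap cells, Plxnd1 was 1.94-fold higher in the metastatic than in the control library, while Sema5a was 1.83-fold lower and Sema7a 1.69-fold lower. Epha4 was 1.41-fold higher. The other 6 genes differed by 1.12-fold or less, among them Sema3c, Efnb2 and Sema3g. Past 1.5-fold were therefore 1 of the 10 genes in the higher direction, where 3.38% of the 11220 genes with at least 100 UMIs were past it, and 2 of the 10 in the lower direction, against 1.8% of all genes. Plxnd1 ranked as number 110 from the top of these genes, Sema5a as number 61 and Sema7a as number 106 from the bottom. The median log2 ratio of the 10 genes was -0.02, and that of all genes 0.02.

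**Figure D1:**
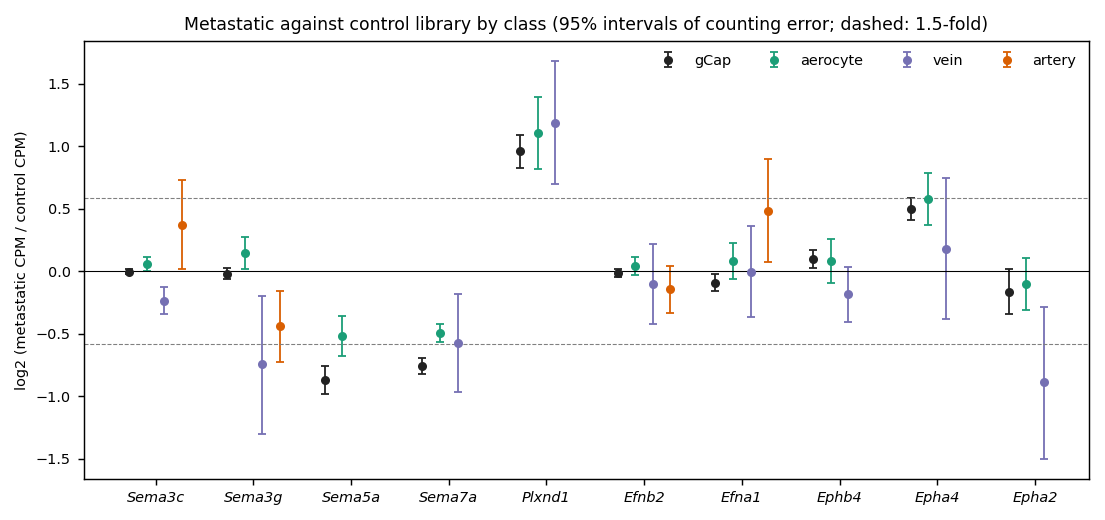
The log2 ratio of the metastatic to the control library is plotted for each gene and class with at least 100 UMIs over both libraries, with 95% intervals of counting error and dashed lines at 1.5-fold. Plxnd1 lies above the upper line in gCap (0.96), aerocyte (1.10) and vein cells (1.18), Sema5a and Sema7a lie below the lower line in gCap cells only, and Sema3c and Efnb2 lie near 0 in gCap cells.

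The sequences upstream of the genes at either end of this order, Plxnd1 and Sema5a, are shown because their levels moved furthest apart between the libraries. They are the 250 bases before the start site from RefSeq on GRCm38.p6, the assembly also called mm10, and lie at chr6:115995006-115995255 on the minus strand for Plxnd1 and at chr15:32244563-32244812 on the plus strand for Sema5a. Capitals mark matches to 6 motifs that were searched on both strands, namely the kappa-B motif, TGTTCT (part of a steroid receptor site), the E-box CACGTG, the AP-1 motif TGANTCA, the STAT motif TTCNNNGAA and the RBPJ motif TGGGAA.
Plxnd1: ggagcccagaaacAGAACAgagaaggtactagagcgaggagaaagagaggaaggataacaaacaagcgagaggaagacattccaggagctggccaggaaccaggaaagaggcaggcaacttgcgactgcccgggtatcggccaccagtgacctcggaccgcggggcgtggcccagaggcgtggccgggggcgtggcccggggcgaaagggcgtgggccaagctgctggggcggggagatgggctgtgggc
Sema5a: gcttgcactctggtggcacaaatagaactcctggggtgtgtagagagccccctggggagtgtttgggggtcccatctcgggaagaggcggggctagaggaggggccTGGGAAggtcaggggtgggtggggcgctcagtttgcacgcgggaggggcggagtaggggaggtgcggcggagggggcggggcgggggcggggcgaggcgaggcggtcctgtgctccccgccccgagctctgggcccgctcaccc
Both promoters were rich in G and C (67% and 71.3% of the 300 bases from 250 before to 50 after the start, where the median over 32851 promoters was 52.7%). The Plxnd1 promoter held 1 TGTTCT match on its opposite strand, a motif found in 19% of all promoters. The Sema5a promoter held 1 TGGGAA match, found in 25.6% of all promoters and also in those of Epha4 and Sema3g. No match to the kappa-B motif (4.51% of all promoters), CACGTG (7.15%), TGANTCA (7.81%) or TTCNNNGAA (8.3%) was found in the 11 promoters of the 10 genes. A match is a description of letters and no evidence of binding.

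Among the semaphorins, Sema5a (chr15:32244810-32696341), a transmembrane semaphorin with thrombospondin repeats, had 56.5 CPM (53.9 to 59.2, 1814 UMIs) in control gCap cells. In metastatic gCap cells it had 30.9 CPM (29.0 to 33.0, 937 UMIs), a log2 ratio of -0.87 (-0.98 to -0.75). Control and metastatic aerocytes had 77.3 and 54.1 CPM, and this log2 ratio of -0.51 (-0.67 to -0.35) did not pass 1.5-fold. Sema5a was thus lower in the metastatic library in both capillary classes. With 32 UMIs in vein and 20 in artery cells over both libraries, no difference was detectable there.

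Sema7a (chr9:57940112-57962865) is tethered to the membrane by a lipid anchor and binds integrins and plexin C1. It had 171 CPM (167 to 176) in control and 101 CPM (97.8 to 105) in metastatic gCap cells, a log2 ratio of -0.76 (-0.82 to -0.70). Aerocytes held more of it in both libraries, with 388 CPM (377 to 400.2) and 276 CPM (265 to 287) in control and metastatic cells and a log2 ratio of -0.49 (-0.56 to -0.42). Vein cells had 56.2 and 37.7 CPM, with a log2 ratio of -0.57 (-0.97 to -0.18) that turned to 0.34 when vein cells with 2 or more gCap markers were left out, which kept 21 and 40 UMIs. Sema7a was thus lower in the metastatic library in both capillary classes, as Sema5a was.

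The class 3 semaphorins were level between the libraries in gCap cells. Sema3c (chr5:17574281-17730268), a secreted ligand of neuropilins and plexins, had 1147 CPM (1136 to 1159) in control and 1146 CPM (1134 to 1158) in metastatic gCap cells. Sema3g (chr14:31217860-31230352), a secreted semaphorin known from arteries, had 273 CPM (268 to 279) and 269.95 CPM (264 to 276). In the other classes their ratios took different signs: the Sema3c log2 ratio was 0.06 (0.01 to 0.12) in aerocyte, -0.24 (-0.34 to -0.13) in vein and 0.37 (0.02 to 0.73) in artery cells. Sema3g had 31.3 CPM in control and 18.7 CPM in metastatic vein cells (69 and 50 UMIs), a log2 ratio of -0.74 (-1.30 to -0.20). In vein cells without 2 gCap markers this ratio was 0.83, on 3 and 8 UMIs.

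Of the ephrins, Efnb2 (chr8:8617434-8661242), the arterial ephrin, had 488 CPM (480 to 495) in control and 483 CPM (476 to 491) in metastatic gCap cells, and its intervals in the libraries overlapped in every class. Efna1 (chr3:89271733-89281142), a lipid-anchored ephrin that binds EphA2, had 130 CPM (126 to 134) and 122 CPM (118 to 126) in gCap cells, a log2 ratio of -0.09 (-0.15 to -0.03). Control artery cells had 176 CPM (141 to 218) and metastatic artery cells 247 CPM (205 to 295), a log2 ratio of 0.48 (0.07 to 0.90) on 87 and 120 UMIs. Neither ephrin passed 1.5-fold in any class.

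Plxnd1 (chr6:115954811-115995005, minus strand), an endothelial plexin that receives Sema3e directly and other class 3 semaphorins with neuropilins, was higher in the metastatic library in gCap, aerocyte and vein cells. It had 23.7 CPM (22.1 to 25.5, 762 UMIs) in control and 46.2 CPM (43.8 to 48.6, 1398 UMIs) in metastatic gCap cells, a log2 ratio of 0.96 (0.83 to 1.09). The pairs of values were 14.1 and 30.4 CPM in aerocytes, 22.2 and 50.5 CPM in vein cells, and 60.8 and 103 CPM in artery cells, where the 30 and 50 UMIs fell under the minimum of 100 and the ratio was not counted. The intervals of the libraries did not overlap in gCap, aerocyte and vein cells, and overlapped in artery cells, where the log2 ratio was 0.76 (0.08 to 1.46). In barcodes with 11 to 50 UMIs, which hold mostly free RNA, Plxnd1 was at 74.6 CPM (55.2 to 98.7) for the control and 70.0 CPM (52.1 to 92.0) for the metastatic library, above its level in gCap cells. With 10% of that profile subtracted the log2 ratio in gCap cells was 1.27.

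Of the Eph receptors, Epha4 (chr1:77367185-77515088), which binds ephrins of both classes, had 58.0 CPM (55.4 to 60.7) in control and 82.0 CPM (78.8 to 85.3) in metastatic gCap cells, a log2 ratio of 0.50 (0.41 to 0.59). In aerocytes it had 30.3 and 45.2 CPM, a log2 ratio of 0.58 (0.37 to 0.79), so that it was higher in both capillary classes without passing 1.5-fold. Its intervals in vein and artery cells overlapped between the libraries. Ephb4 (chr5:137350109-137378669), the venous receptor of ephrin-B2, had 105 CPM (102 to 109) and 113 CPM (109 to 117) in gCap cells, a log2 ratio of 0.10 (0.03 to 0.17). Epha2 (chr4:141301240-141329384), the main receptor of Efna1, had 17.1 CPM (15.7 to 18.6) and 15.3 CPM (14.0 to 16.8) there, and these intervals overlapped. Epha2 had 27.7 CPM (21.2 to 35.5, 61 UMIs) in control and 14.9 CPM (10.7 to 20.4, 40 UMIs) in metastatic vein cells, a log2 ratio of -0.89 (-1.50 to -0.29).

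Outside gCap cells, the genes past 1.5-fold were Plxnd1 alone in aerocytes, and in vein cells Plxnd1 in the higher and Sema3g and Epha2 in the lower direction. In aerocytes 1 of the 10 was higher and 0 lower, against 2.64% and 1.26% of all genes with at least 100 UMIs. In vein cells 1 of the 9 with enough UMIs was higher and 2 were lower, against 3.31% and 1.9% of all genes, and in artery cells 0 of 4 were past it in either direction, against 4.6% and 3.72%. Whether the ratio of a gene differed between classes was not tested. Markers of other cell types also moved between the libraries within gCap cells: the summed level of the 4 platelet markers was 175 and 271 CPM, of the 4 red cell markers 1611 and 675 CPM, of the 5 myeloid markers 356 and 238 CPM, and of the 4 epithelial markers 1617 and 953 CPM, with every marker of these lists detected. The 6 melanoma markers summed to 1.84 and 2.41 CPM, with Tyr at 0 in the control library. When cells with 2 or more markers of another cell type were left out, which kept 2053 and 2650 gCap cells, the log2 ratios were 0.81 for Plxnd1 and 0.62 for Epha4, and those of Sema5a and Sema7a stayed within their intervals. The epithelial, myeloid and red cell markers moved more in vein cells. There the epithelial sum was 121 CPM in control and 3480 CPM in metastatic cells, the myeloid sum 32.2 and 614 CPM and the red cell sum 359.9 and 1080 CPM. The platelet sum moved less there, at 68.9 and 74.8 CPM. Vein cells without 2 such markers (114 and 183 cells) gave log2 ratios of 1.33 for Plxnd1, -1.21 for Epha2 and -0.17 for Sema3g, so that Sema3g was no longer past 1.5-fold, and the Sema3c ratio turned to 0.0728. In aerocytes the epithelial sum was 609.9 and 88.4 CPM and the platelet sum 76.5 and 157 CPM. In artery cells the myeloid sum was 24.3 and 275.5 CPM and the platelet sum 14.2 and 148 CPM. The 4 lymphatic markers Prox1, Mmrn1, Reln and Ccl21a moved most there, with sums of 2.03 CPM in control and 1480 CPM in metastatic artery cells. Of the latter sum Ccl21a made up 1322 CPM, and 2 of the 59 metastatic artery cells carried 2 or more of these markers.

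The shares of cells with a UMI followed the levels. With every gCap cell reduced to 2000 random UMIs, which left out 73 control and 58 metastatic cells, Plxnd1 was detected in 4.53% (3.97 to 5.14, Clopper-Pearson) of the control and 7.62% (6.86 to 8.44) of the metastatic cells. Sema7a was detected in 27.2% (25.9 to 28.4) and 16.9% (15.8 to 18.03), and Sema5a in 9.06% (8.27 to 9.89) and 5.58% (4.93 to 6.30). Epha4 was found in 8.83% (8.06 to 9.66) and 13.5% (12.5 to 14.5). Without thinning the shares were 12.9% and 20.7% for Plxnd1, 54.2% and 38.1% for Sema7a, 19.1% and 12.9% for Sema5a, and 20.3% and 30.0% for Epha4. Lymphoid cells were taken as a background, and whether they lack these genes was not tested. None of the 4 was detected in them after thinning, in 47 control or 50 metastatic cells. This allows a share of up to 7.55% and 7.11% (Clopper-Pearson). The Plxnd1 share of the control library and the Sema5a share of the metastatic library lie under these limits. Without thinning, Sema7a was detected in 1 of 47 and 2 of 51 lymphoid cells and the other 3 genes in none. Median depths were 5990 and 6314 UMIs in the gCap cells and 4770 and 5015 in the lymphoid cells. In gCap cells grouped by depth, the log2 ratio of Plxnd1 was 0.69, 0.88 and 1.06 in cells with under 5000, 5000 to 8000 and over 8000 UMIs, and that of Sema5a was -0.68, -0.82 and -1.02, so that both kept their direction at every depth.

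The second comparison placed each gene among the 4 classes. UMIs were summed per class and library, and each class was tested against gCap cells with edgeR's quasi-likelihood test over 12209 genes, with the library as a term and Benjamini-Hochberg adjustment. Here the libraries served as the replicates of a class, so that these p-values rest on 2 sums per class. Aerocytes were higher for 3 and lower for 7 of the 10 genes, where 17.1% of all genes were higher and 16.7% lower. Vein cells were higher for 1 and lower for 7, against 11.1% and 8.89% of all genes, and artery cells higher for 4 and lower for 3, against 5.03% and 4.79%. Aerocytes, vein and artery cells were also deeper than gCap cells, with medians of 7276 to 8422 UMIs against 5950 and 6275, and the part of this in the differences was not tested.

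**Figure D2:**
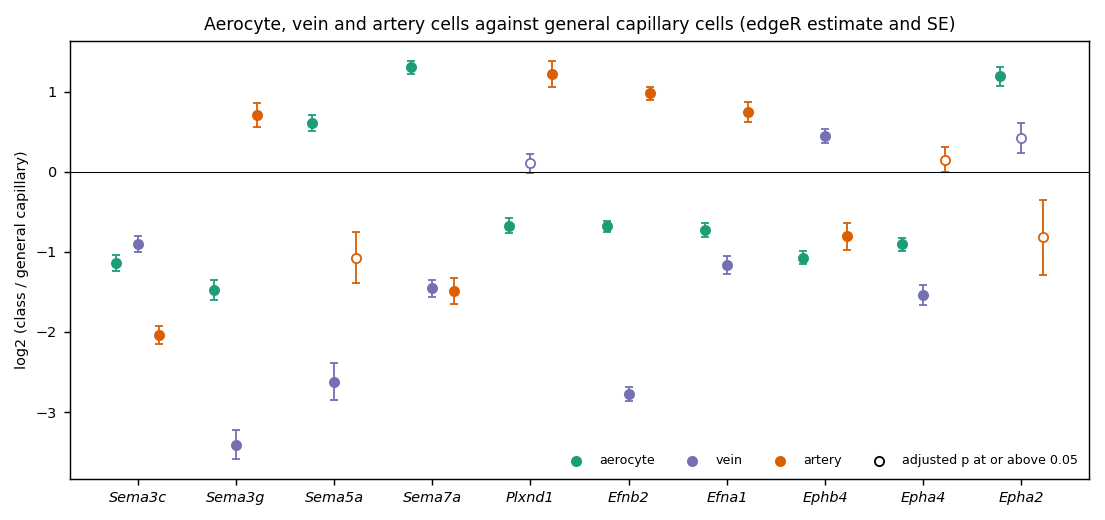
The log2 difference of aerocyte, vein and artery cells from gCap cells is plotted for each gene as the edgeR estimate over 8 class sums. Bars give an SE derived from the F statistic of the test. Points are filled where the adjusted p was under 0.05 and open otherwise. Sema7a (1.30), Epha2 (1.19) and Sema5a (0.61) are higher in aerocytes, Ephb4 (0.44) is higher in vein cells, and Plxnd1 (1.22), Efnb2 (0.98), Efna1 (0.75) and Sema3g (0.71) are higher in artery cells.

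The aerocyte side held Sema7a, Epha2 and Sema5a. Sema7a differed from gCap cells by 1.30 ± 0.08 on the log2 scale (SE, adjusted p = 3.0e-07), and was lower in vein cells (-1.46 ± 0.10) and artery cells (-1.48 ± 0.16). Epha2 had 38.6 and 36.0 CPM in aerocytes of the control and metastatic library against 17.1 and 15.3 CPM in gCap cells, a log2 difference of 1.19 ± 0.12 (adjusted p = 2.0e-05). Its differences in vein (0.42 ± 0.19, adjusted p = 0.15) and artery cells (-0.82 ± 0.47, adjusted p = 0.36) did not pass, the latter on 9 UMIs. Sema5a was 0.61 ± 0.10 higher in aerocytes (adjusted p = 7.9e-04), a call lost with DESeq2 and with no library term, and in vein cells it was at 6.80 and 6.35 CPM, a log2 difference of -2.62 ± 0.23 (adjusted p = 9.8e-06).

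The artery side held Efnb2, Sema3g, Efna1 and Plxnd1. Efnb2 ran from 1004 CPM (917 to 1096) in control and 909 CPM (826 to 998) in metastatic artery cells to 70.3 CPM (59.6 to 82.2) and 65.4 CPM (56.1 to 75.8) in vein cells. Against gCap cells it differed by 0.98 ± 0.08 in artery (adjusted p = 1.2e-05), by -0.68 ± 0.07 in aerocyte and by -2.78 ± 0.09 in vein cells. The order artery, gCap, aerocyte, vein was the same in both libraries, and no neighbouring intervals overlapped. Sema3g kept the same order, with 513 and 378 CPM in artery, 273 and 269.95 CPM in gCap, 93.0 and 103 CPM in aerocyte and 31.3 and 18.7 CPM in vein cells, and its difference was 0.71 ± 0.15 in artery (adjusted p = 0.0095) and -3.41 ± 0.18 in vein cells (adjusted p = 1.6e-07). Efna1 differed by 0.75 ± 0.13 in artery (adjusted p = 0.0026), -0.73 ± 0.09 in aerocyte and -1.16 ± 0.11 in vein cells. Plxnd1 differed by 1.22 ± 0.17 in artery (adjusted p = 6.0e-04) and -0.67 ± 0.09 in aerocyte cells, and by 0.11 ± 0.12 in vein cells (adjusted p = 0.59). In the barcodes of mostly free RNA it was at 74.6 CPM (control) and 70.0 CPM (metastatic), above its levels in aerocyte and vein cells. The part of free RNA in these class differences was not tested. With no library term the calls of Plxnd1 in artery and aerocyte cells and of Sema3g and Sema7a in artery cells were lost. All 4 artery calls were lost when artery cells with 2 or more gCap markers were left out, which kept 12 control and 22 metastatic cells: the differences were then 0.29 for Efnb2 (adjusted p = 0.45), 0.18 for Sema3g (0.597), 0.79 for Efna1 (0.078) and 1.41 for Plxnd1 (0.061).

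Ephb4, the partner of Efnb2, lay on the venous side. It had 151 CPM (136 to 169) in control and 133 CPM (120 to 148) in metastatic vein cells, 0.44 ± 0.09 above gCap cells (adjusted p = 0.0042), and was lower in aerocytes (-1.07 ± 0.08) and artery cells (-0.80 ± 0.17, adjusted p = 0.0094), the last call being lost when cells with markers of other cell types were left out. Vein cells thus held the highest level of Ephb4 and the lowest of Efnb2 in both libraries. Epha4 was lower in aerocytes (-0.90 ± 0.08) and vein cells (-1.54 ± 0.12), and its difference in artery cells was 0.15 ± 0.16 (adjusted p = 0.67). Sema3c was highest in gCap cells, with differences of -1.14 ± 0.10 in aerocyte, -0.90 ± 0.10 in vein and -2.04 ± 0.12 in artery cells (adjusted p from 9.1e-07 to 5.6e-05). In aerocytes without 2 gCap markers the difference of Sema3c was -2.64 and that of Sema3g -4.79. The other genes lower in aerocytes also lay further from gCap cells, at -2.18 (Ephb4), -1.68 (Epha4), -1.27 (Efna1), -1.19 (Efnb2) and -1.07 (Plxnd1). So did the genes higher there, at 1.68 (Sema7a), 1.56 (Epha2) and 0.81 (Sema5a). All 10 genes thus lay further from gCap cells in aerocytes without 2 gCap markers, a change that was not tested.

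**Figure D3:**
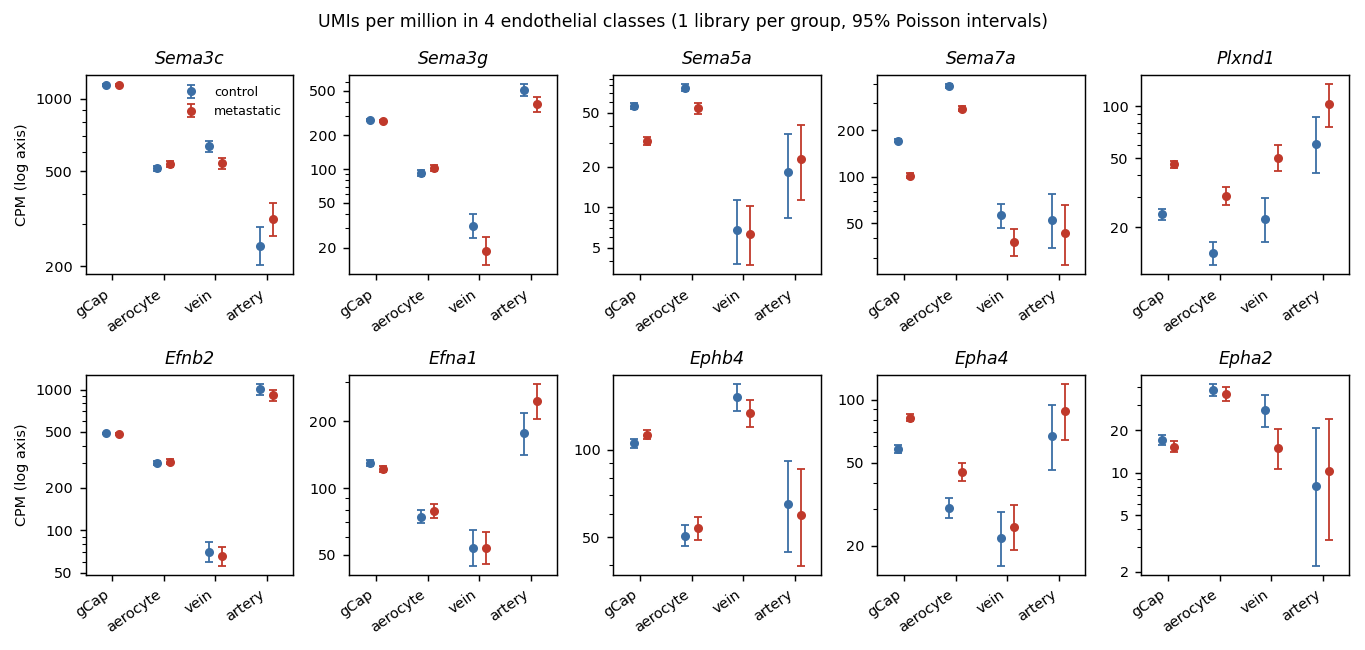
Each panel plots the level of a gene in CPM (log axis) in gCap, aerocyte, vein and artery cells of the control and metastatic library, as points with 95% Poisson intervals. Efnb2 falls from about 1004 CPM in control artery cells to 70.3 CPM in control vein cells, and Plxnd1 lies higher in the metastatic library, with overlapping intervals in artery cells.

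The same order was looked for inside the gCap class, by splitting gCap cells by the presence of a UMI of a single artery marker (407 control and 361 metastatic cells) or vein marker (269 and 255 cells). The markers include none of the genes followed here. The genes and the marker lists were both chosen with earlier results of these data known. The split is therefore not an independent check of the order. Efnb2 had 463 CPM in control gCap cells without and 744 CPM in those with an artery marker, a log2 ratio of 0.69 (0.62 to 0.75), and in the metastatic library the ratio was 0.61 (0.54 to 0.68). With a vein marker the ratios were -0.96 (-1.08 to -0.83) and -0.74 (-0.86 to -0.62). Sema3g followed the same pattern, with 0.48 and 0.29 for an artery marker and -0.92 and -0.80 for a vein marker, and Efna1 had 0.36 and 0.27 against -0.25 and -0.33. Epha4 was at -0.91 and -0.70 and Sema5a at -0.78 and -0.96 with a vein marker, and the intervals of both included 0 with an artery marker. Sema3c was lower with either marker, at -0.45 and -0.53 for artery and -0.24 and -0.19 for vein. Ephb4 was not higher in gCap cells with a vein marker, at -0.32 (-0.55 to -0.11) and -0.07 (-0.27 to 0.13). Plxnd1 was 0.60 (0.28 to 0.91) higher with an artery marker in the control library, and the ratio was 0.07 (-0.20 to 0.33) in the metastatic library. Cells with a marker were deeper. In the control library the medians were 6263 against 5917 UMIs for the artery and 6503 against 5914 UMIs for the vein markers. In the metastatic library they were 6740 against 6209 UMIs for the artery and 7337 against 6207 UMIs for the vein markers. The part of depth was not tested.

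**Figure D4:**
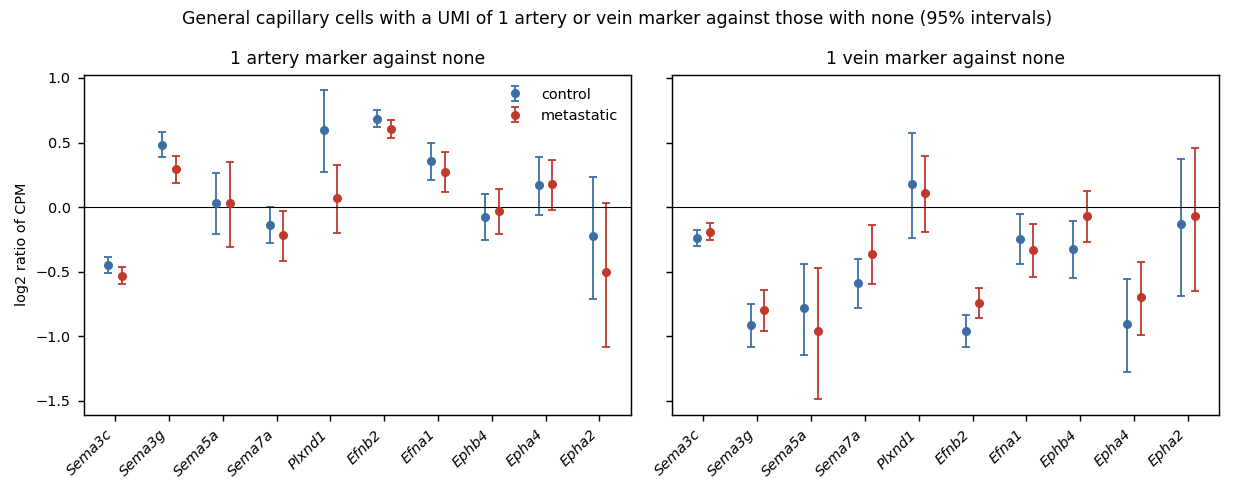
The log2 ratio of CPM in gCap cells with a UMI of 1 artery marker (left) or 1 vein marker (right) to gCap cells with none is plotted for each gene and library with 95% intervals of counting error. Efnb2 is at 0.69 and 0.61 on the left and at -0.96 and -0.74 on the right, and Sema3g and Efna1 lie on the same sides.

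The whole families were examined in gCap cells for context. Of 53 genes of the semaphorin, plexin, neuropilin, ephrin and Eph families, 26 had at least 100 UMIs, of which 3 were higher and 3 lower past 1.5-fold, where 3.38% of all genes were higher and 1.8% lower. Their median log2 ratio was -0.00, and that of all genes 0.02. Besides Plxnd1, the higher genes were Sema6d (82.6 and 134 CPM in the control and metastatic library, log2 ratio 0.70, 0.63 to 0.77), a transmembrane semaphorin, and Plxnb2 (9.16 and 14.3 CPM, 0.64, 0.42 to 0.86), a receptor of class 4 semaphorins. Besides Sema5a and Sema7a, the lower gene was Plxna2 (117 and 76.6 CPM, -0.61, -0.68 to -0.53), a plexin that pairs with neuropilins, and it was lower in all 4 classes, with -0.68 in aerocyte, -0.93 in vein and -0.62 in artery cells. Sema6d was also higher in aerocytes (0.83) and was at -0.00 in vein cells. The co-receptor Nrp1 had 331 CPM in control and 484 CPM in metastatic gCap cells (log2 ratio 0.55, 0.51 to 0.58), just inside the threshold, and 1119 and 1214 CPM in aerocytes (0.12). Of the other neuropilins and class A plexins, Nrp2 was at 0.36 (0.07 to 0.65), Plxna1 at 0.16 (0.08 to 0.23) and Plxna4 at 0.00 (-0.18 to 0.18) in gCap cells, all within 1.5-fold.

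**Figure D5:**
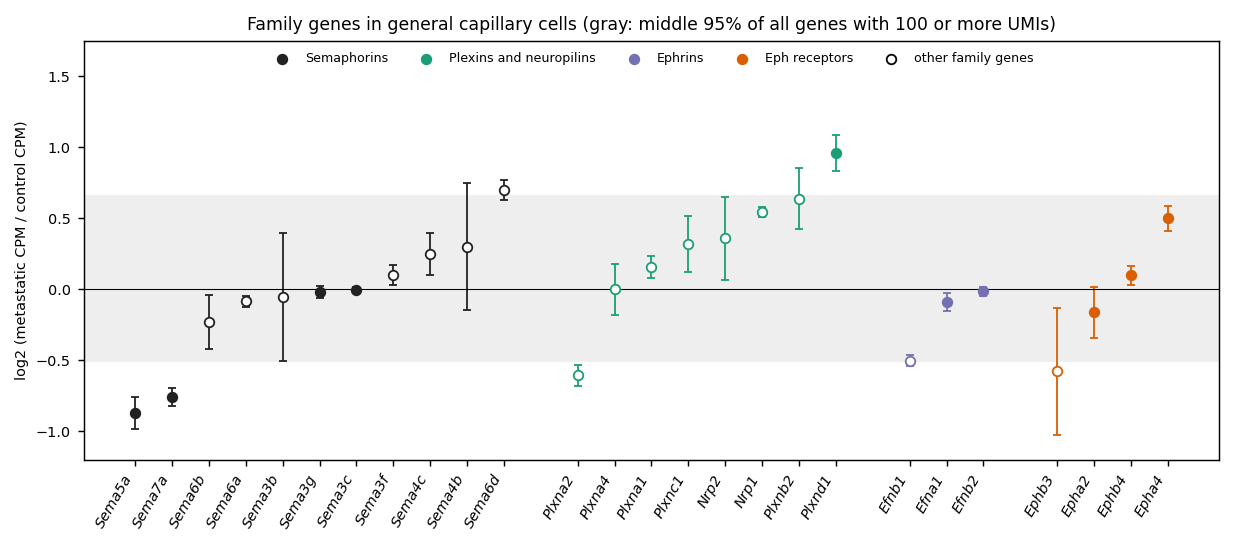
The log2 ratio of the metastatic to the control library in gCap cells is plotted for the 26 family genes with at least 100 UMIs, ordered within each family, with 95% intervals of counting error. Filled points are the 10 genes, and the gray band holds the middle 95% of all 11220 genes (-0.51 to 0.66), with Sema6d and Plxnd1 above it and Sema5a, Sema7a and Plxna2 among those below it.

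Between classes, the same edgeR test was read for the other family genes. Nrp1 was higher in aerocytes (1.54 ± 0.11, adjusted p = 1.2e-06) and artery cells (0.56 ± 0.12, adjusted p = 0.012). Plxna2 was higher in aerocytes (1.25 ± 0.08, adjusted p = 5.9e-07), vein cells (0.41 ± 0.09, adjusted p = 0.0090) and artery cells (0.54 ± 0.13, adjusted p = 0.024). Nrp2, which is known from veins and lymphatics, had 5.61 and 7.20 CPM in gCap cells and 89.3 and 121 CPM in vein cells, a log2 difference of 4.09 ± 0.20 (adjusted p = 1.1e-07). Its difference in artery cells (2.79 ± 0.43, adjusted p = 0.0014) was lost, at 0.65 (adjusted p = 0.51), when cells with 2 or more lymphatic markers were left out. These were 2 of the 59 metastatic artery cells, and without all such cells none of the class calls of the 10 genes changed. Sema3b was higher in vein cells (2.64 ± 0.29, adjusted p = 6.4e-05) and aerocytes (1.58 ± 0.26, adjusted p = 6.7e-04). Plxna1 was lower in artery cells (-2.12 ± 0.20, adjusted p = 3.4e-05) and vein cells (-1.40 ± 0.10, adjusted p = 2.0e-06). It was higher in aerocytes (0.53 ± 0.07, adjusted p = 9.1e-05). Of 14 semaphorins tested, 6 were higher and 3 lower in aerocytes, 3 higher and 5 lower in vein cells, and 1 higher and 4 lower in artery cells. Of 9 plexins and neuropilins, 4 were higher and 3 lower in aerocytes, 5 higher and 1 lower in vein cells, and 5 higher and 1 lower in artery cells, the last count with Nrp2. Of 5 ephrins, 0 were higher and 2 lower in aerocytes, 1 higher and 3 lower in vein cells, and 3 higher and 1 lower in artery cells. Of 4 Eph receptors, 1 was higher and 2 lower in aerocytes, 2 higher and 1 lower in vein cells, and 0 higher and 1 lower in artery cells. Over all genes the shares higher and lower were 17.1% and 16.7% in aerocytes, 11.1% and 8.89% in vein cells and 5.03% and 4.79% in artery cells.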

How the data were processed

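Per the file headers, the deposited matrices hold raw UMI counts per gene and barcode made with Cell Ranger 3.1.0. The genome was mm10 per the labels. The counts were used as deposited. Barcodes with 1000 to 5000 genes and under 20% mitochondrial UMIs were kept, 7134 in the control and 6466 in the metastatic library. A class needed UMIs of at least 2 of its markers, and gCap cells belonged to no other class. Doublets were not removed apart from cells of 2 vessel classes, and leaving out the 407 and 334 cells of highest Scrublet score was an alternative. The 10 genes, the marker lists and the family lists were chosen with earlier results of these data known.

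UMIs were summed per class and library. Ratios between libraries used CPM with exact conditional binomial 95% intervals, CPM carried exact Poisson and shares Clopper-Pearson intervals, all covering counting error only, and ratios of genes with under 100 UMIs over both libraries were left out of every count. With 1 library per group there was no test between groups. Classes were tested on 8 sums with edgeR 4.0.16 (TMM, quasi-likelihood, the library as a term, threshold 0.05 after Benjamini-Hochberg adjustment). The SE of a class difference was derived, as its absolute log2 value divided by the square root of the F statistic of its test. Family genes were named if past 1.5-fold between libraries in gCap or aerocyte cells, or past 4-fold with adjusted p under the threshold between classes, with Nrp1, Nrp2 and Plxna2 always named. Other tools were DESeq2 1.42.0, R 4.3.3, scanpy 1.11.5, scipy 1.17.1 and Python 3.11.15. Gene positions are from the GENCODE annotation of mm10.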

Additional observations from a re-analysis of the deposited data

Results flagged for a closer look

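A few genes differed between the libraries in opposite directions in different classes, with intervals of counting error that leave out 0. Sema3c had a log2 ratio of the metastatic to the control library of 0.0605 in aerocyte and 0.37 in artery cells but -0.24 in vein cells, where it turned to 0.0728 when cells with markers of other cell types were left out. Sema3g had 0.15 in aerocytes but -0.74 in vein and -0.44 in artery cells. Without class cells carrying 2 gCap markers it was at -0.00591 in aerocytes and 0.83 in vein cells, the latter on 3 and 8 UMIs. Efna1 had -0.0893 in gCap and 0.48 in artery cells. With 1 library per group, the difference between classes was not tested for any of them.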

How the results depend on the processing

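Of the alternative log2 ratios in gCap cells 84 stayed within the main intervals and 6 did not, and in the other classes 191 did, 15 did not and 4 changed sign. With cells carrying other cell type markers left out, the gCap ratios were -0.0451 for Sema3c, 0.81 for Plxnd1, 0.0357 for Efnb2 and 0.62 for Epha4, and Sema3c in vein cells turned to 0.0728. TMM scaling gave -0.0263 for Sema3c, and 10% free RNA subtracted gave 1.27 for Plxnd1. Without class cells carrying 2 gCap markers, an alternative chosen after seeing the data as were the 10% subtraction and the lymphatic one, the ratio turned to -0.00591 for Sema3g in aerocytes, and to 0.83 for Sema3g and 0.34 for Sema7a in vein cells. The cause was not tested.

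At a fold of 2, 0 of the 10 genes were higher and 0 lower in gCap cells, 0 were lower in vein cells, and 0 family genes were higher and 0 lower in gCap cells. With a minimum of 20 UMIs, or of 1 UMI in each library, 1 and 1 of the 10 were higher in artery cells. Then 7 and 10 family genes were higher in gCap cells, and with the latter 7 were lower. The shares over all genes at a fold of 2 and at these minima were not computed. These counts therefore show only their dependence on the settings, and no result about the genes or families. The number higher in artery than gCap cells was 0 without class cells carrying 2 gCap markers and 2 with no library term. Differences in the share of gCap cells with a UMI, in percentage points, were 2.04 thinned to 1000 UMIs and 7.78 not thinned for Plxnd1, 1.76 and 9.75 for Epha4, -1.92 and -6.13 for Sema5a, and -5.51 and -16.2 for Sema7a. Under the alternatives for the class differences of the 10 genes, 11 calls were lost and 2 gained. Lost were the 4 higher artery calls without class cells carrying 2 gCap markers, Sema5a in aerocytes with DESeq2 and with no library term, Plxnd1 in aerocytes and Sema3g, Sema7a and Plxnd1 in artery cells with no library term, and Ephb4 in artery cells with other cell type markers left out. Gained was Sema5a in artery cells with doublets left out (-1.30) and with no filter (-1.10). Free RNA at the share set by Scgb1a1 and Sftpc could be subtracted in both libraries only in artery cells (26.5% and 15.3%), which gave ratios of 0.35 for Sema3c, -0.64 for Sema3g, -0.34 for Efnb2 and 0.32 for Efna1, with Sema3g then past 1.5-fold. In each other class the share was over 100% in at least 1 library, up to 662% in metastatic vein cells. No paired analysis was possible because each group has 1 library.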

Other observations

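Other guidance genes of gCap cells were read from 2 lists. The first held netrin, Slit, Robo and Unc5 genes, with Dcc, Neo1, Rgma and Rgmb. The second held proteins that act inside the cell below plexins and Eph receptors. Of the 18 genes of the first list 7 had at least 100 UMIs. Past 1.5-fold were 1 higher and 0 lower, where 3.38% of all genes were higher and 1.8% lower. The higher gene was Unc5b, a netrin receptor of endothelial cells, with a log2 ratio of 0.82. Of 24 intracellular genes 21 had enough UMIs, with 2 higher and 0 lower, against the same 3.38% and 1.8% of all genes. Pick1 of this list and Ntn3 of the first were not read for these ratios, since their symbols did not match exactly 1 gene. Tiam1, an activator of the small GTPase Rac1, had 7.20 CPM in control and 26.9 CPM in metastatic gCap cells, a log2 ratio of 1.90, and 1.95 in aerocytes. Rnd1, a small GTPase that binds plexins, had 3.89 and 10.47 CPM in gCap cells, a log2 ratio of 1.43. In aerocytes Rnd3 was at 0.60 and Vav2 at -0.71. Between classes, by edgeR, Ntn4 was higher in artery (2.49) and aerocyte cells (1.45), Unc5b in aerocytes (2.07) and Rnd1 in vein cells (2.60).

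The genes whose log2(CPM + 5) over the 8 class sums was most like that of a guidance gene were Smad4 for Sema3c (Pearson r = 0.993), Sparcl1 for Sema3g (0.988), Mtfr1l for Sema5a (0.986), Prpf4b for Sema7a (0.982), Rnpep for Plxnd1 (0.981), Aaed1 for Efnb2 (0.99), Ivns1abp for Efna1 (0.992), Mrrf for Ephb4 (0.994), Tox3 for Epha4 (0.984) and Psmd5 for Epha2 (0.979). The 8 points share 2 libraries and differ in depth, and between 56 and 323 of 11729 genes reached an r of 0.9 with each, so these are descriptions only.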
